A study of Mus musculus with 19 samples.

Results

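Crb1, Wdfy1, Aim2, Nnt, Gm28438 and Snapc1 are 6 mouse genes that were selected on the difference in level between CnB1KO and WT mice in earlier results of these data, as possible differences of strain. They were found by gene symbol: 5 of the 6 are among the 14443 symbols with deposited counts, and Nnt is among the 56860 symbols with FPKM (fragments per kilobase, scaled to the mapped total) but not in the count table. Because the genotype difference chose them, their levels in CnB1KO and WT libraries are given as a description without a test, and tests are given for sleep deprivation and for genes that are not members.

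RNA with poly(A) tails was sequenced from the dissected locus coeruleus, the brainstem nucleus of noradrenergic neurons that promotes wakefulness. The groups were CnB1KO_SD6 (ABC-CnB1KO mice deprived of sleep for 6 h, n = 5), CnB1KO_S6 (ABC-CnB1KO mice that slept normally, n = 5), WT_SD6 (ABC-Ctrl mice deprived of sleep for 6 h, n = 5) and WT_S6 (ABC-Ctrl mice that slept normally, n = 4). Tissue of every group was taken 4 weeks after injection of AAV-hSyn-Cre, a virus that carries the recombinase Cre under the synapsin promoter of neurons, so the other cells of the dissected tissue are not those the promoter is meant for. The sources used here do not give the background strain, the age, the alleles that the controls carry or any pooling of animals.

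Inbred mouse strains, and substrains of one strain kept apart for many generations, differ by fixed variants, and mice of 2 genotypes that were not bred as littermates can carry different ones. Crb1 and Nnt are known for such variants: C57BL/6N mice carry the rd8 frameshift in Crb1, and C57BL/6J mice, from which the reference genome was made, lack several exons of Nnt. The mitochondrial gene mt-Nd3, of which Gm28438 is a nuclear copy, is known to vary between inbred strains at the third base of its start codon. Which variants the mice of this study carry was not analysed here.

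The members have unrelated roles. Crb1 encodes a transmembrane Crumbs protein of the apical polarity complex, best known from photoreceptors and Müller glia of the retina. Aim2 encodes a sensor of cytosolic DNA that assembles an inflammasome, and Wdfy1 a FYVE and WD-repeat protein of endosomes that links the receptors TLR3 and TLR4 to their adaptor. Snapc1 encodes a subunit of the complex that starts transcription of small nuclear RNA genes, and Nnt the nicotinamide nucleotide transhydrogenase of the inner mitochondrial membrane, a source of mitochondrial NADPH. Gm28438 is annotated as an unprocessed pseudogene.

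In GRCm38 with the GENCODE M21 annotation, 4 of the 6 lie on chromosome 1, far from each other: Gm28438 at chr1:24612775-24613119 (minus strand), Wdfy1 at chr1:79702262-79776143 (minus), Crb1 at chr1:139197056-139377100 (minus) and Aim2 at chr1:173350879-173466040 (plus). Snapc1 lies at chr12:73964481-73988966 (plus) and Nnt at chr13:119335448-119408997 (minus).

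The total count per library was 3887298 to 7903253, lowest in library 13 of CnB1KO_S6. Ppp3r1, which encodes CnB1, the regulatory subunit of calcineurin, averaged 131 ± 10 CPM (counts scaled to a common library total) in CnB1KO and 156 ± 9.38 CPM in WT libraries (SD, n = 10 and 9), with overlapping ranges of 120 to 152 and 136 to 165 CPM. Its log2 difference was -0.26 (SE 0.04, adjusted p = 0.00758, edgeR's quasi-likelihood test with Benjamini-Hochberg adjustment). All 10 noradrenergic markers were measured and none passed that test between genotypes, with summed levels of 1034 to 1730 CPM in CnB1KO and 681 to 1663 CPM in WT libraries. Markers of cerebellar granule neurons summed to 264 to 1570 CPM in CnB1KO and 342 to 2268 CPM in WT libraries, with a median log2 difference of -0.81 over 9 genes, none of which passed. Of 7 endothelial markers 4 rose, Cldn5, Pecam1, Flt1 and Slco1a4, with summed levels of 463 to 615 CPM in CnB1KO and 387 to 471 CPM in WT libraries. Of 11 oligodendrocyte markers 3 rose (Mag, Ermn and Ugt8a, list summing to 1941 to 3011 CPM in CnB1KO and 1831 to 2237 CPM in WT), as did C1qa and C1qc of 10 microglial markers (311 to 371 CPM in CnB1KO and 263 to 366 CPM in WT). Most of these marker calls were not steady: of 26 alternative fits, most of them leaving out 1 library, C1qc lost its call in 18, Mag in 15, C1qa in 14, Ugt8a in 12, Slco1a4 in 11, Pecam1 in 9 and Ermn in 3, while Cldn5 and Flt1 lost theirs in 0. None of 9 astrocyte, 4 choroid plexus, 6 ependymal and 4 Y-linked markers passed. The part of cell composition in the members' differences was not tested, and in bulk tissue fewer cells of a type and less RNA per cell cannot be told apart.

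The sequence of Gm28438 bears on how its reads can be read, and its first 90 bases are shown beside those of mt-Nd3, both taken from the GENCODE M21 transcripts. Gm28438 covers chr1:24613030-24613119 (minus strand) in this stretch and mt-Nd3 bases 9459 to 9548 of the mitochondrial genome (plus strand), written 5′ to 3′ with the 1 differing base in capitals.
Gm28438: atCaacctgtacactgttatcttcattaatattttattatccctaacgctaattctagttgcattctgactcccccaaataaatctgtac
mt-Nd3: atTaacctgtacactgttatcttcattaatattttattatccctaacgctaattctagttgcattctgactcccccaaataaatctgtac
Over all 345 bases of Gm28438, 344 are the same as in mt-Nd3, which is 348 bases long. The substitution is T3C, mt-Nd3's base first, with positions counted from 1 at the 5′ end of each transcript. A read that does not cover this base has the same letters in both genes.

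In the deposited counts Gm28438 was present in CnB1KO and almost absent in WT libraries. It had 52, 64, 78, 45 and 49 counts in CnB1KO_SD6 and 62, 65, 42, 71 and 56 in CnB1KO_S6, against 0, 1, 2, 0 and 2 in WT_SD6 and 1, 1, 0 and 3 in WT_S6. The lowest CnB1KO library had 42 counts and the highest WT library 3, so the genotypes did not overlap. Summed, these were 584 counts of 61048296 in CnB1KO and 10 of 60107160 in WT, a ratio of 57.5 (95% exact interval 31.0 to 121). The ratio was 63.9 (27.1 to 198) after deprivation and 50.9 (21.6 to 158) after sleep. The intervals cover counting error only, with reads and not libraries as the unit. They leave out the spread between libraries and are no test, since this difference chose Gm28438.

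The deposited FPKM of Gm28438 gave another picture. CnB1KO libraries had a mean of 1169 ± 218 FPKM (range 906 to 1669, n = 10) and WT libraries a mean of 1294 ± 141 FPKM (1097 to 1494, n = 9). The ranges overlapped, and the lower mean in CnB1KO lay within the spread of the libraries. FPKM thus did not show the difference seen in the counts. The FPKM of mt-Nd3 ran alongside, at 890 to 1638 in CnB1KO and 1139 to 1478 in WT, and the ratio of Gm28438 to mt-Nd3 FPKM within a library stayed between 0.983 and 1.04 in CnB1KO and between 0.963 and 1.01 in WT. mt-Nd3 itself has no row in the count table, so its counts cannot be set beside those of Gm28438.

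**Figure D1:**
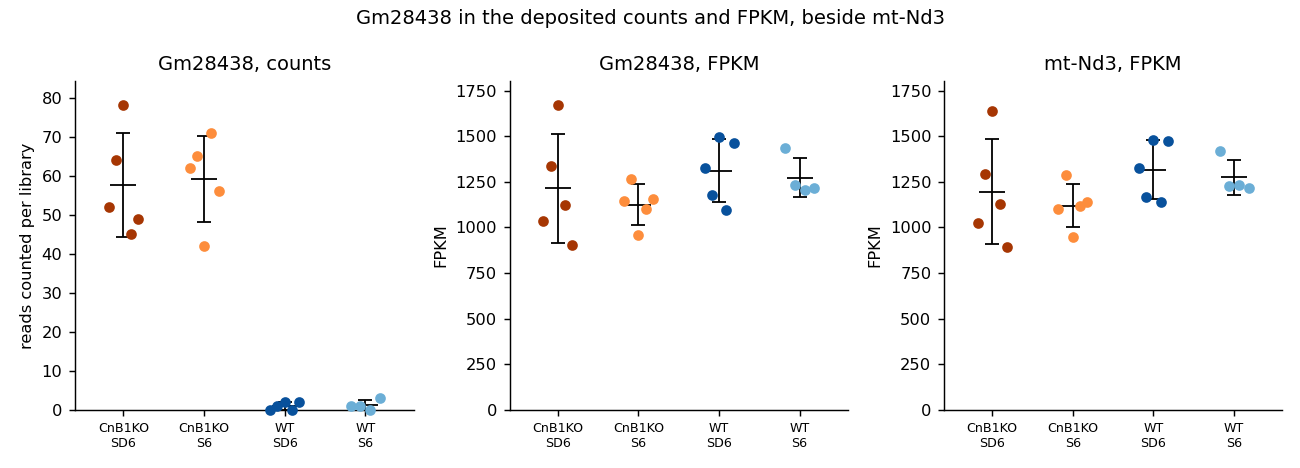
Gm28438 as counts (left) and FPKM (middle), and mt-Nd3 FPKM (right), by group; each point is 1 library and the bars are mean ± SD. The counts separate the genotypes, with 42 to 78 in CnB1KO and 0 to 3 in WT, while both FPKM panels overlap and look alike.

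Gm28438 is 1 of a row of nuclear copies of mitochondrial genes on chromosome 1. Its neighbours Gm28437, Gm28439, Gm10925 and Gm28661 are 100% identical to mt-Co3, mt-Nd4, mt-Atp6 and mt-Co2 over their whole length, and Gm29216 differs from mt-Co1 at 1 of 483 aligned bases. None of these 5 has a row in the count table. Their FPKM overlapped between genotypes, for example 4224 to 6886 in CnB1KO and 4127 to 5673 in WT for Gm28437. Of the 7 mitochondrially encoded genes with counts, 0 differed between genotypes by the test. Their counts varied little, although library totals ran from 3887298 to 7903253. For example, mt-Nd1 had 850 to 974 counts in CnB1KO and 909 to 995 in WT, and mt-Nd6 428 to 552 and 441 to 525. The CPM of these genes thus partly reflects the library total, and the test says little about genotype. Why the counts varied so little was not tested. Gm13340, a copy on chromosome 2 that was looked up after its values were seen and that differs from mt-Co1 at 37 of 1545 bases, had 18 to 38 counts in CnB1KO and 16 to 30 in WT libraries.

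Crb1 was low in every CnB1KO library. It had 2.29, 3.01, 1.74, 3.37 and 3.19 CPM in CnB1KO_SD6 and 2.02, 2.72, 2.46, 2.90 and 2.03 CPM in CnB1KO_S6, against 14.6, 17.7, 7.16, 13.1 and 18.2 CPM in WT_SD6 and 19.9, 16.5, 15.2 and 13.4 CPM in WT_S6. No CnB1KO library reached 3.38 CPM, and no WT library fell under 7.16 CPM. The means were 2.57 ± 0.55 CPM in CnB1KO and 15.1 ± 3.72 CPM in WT (SD), a 5.86-fold higher level in WT. Behind these stand 9 to 21 counts per CnB1KO library and 47 to 147 per WT library. In FPKM the means were 0.370 ± 0.079 in CnB1KO and 2.21 ± 0.537 in WT, also without overlap.

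Wdfy1 ran the other way. It had 125, 118, 112, 113 and 122 CPM in CnB1KO_SD6 and 113, 113, 115, 112 and 118 CPM in CnB1KO_S6, against 42.2, 47.5, 40.2, 40.7 and 88.2 CPM in WT_SD6 and 44.0, 42.1, 43.8 and 43.7 CPM in WT_S6. The CnB1KO libraries lay close together, and 8 of the 9 WT libraries lay at 40.2 to 47.5 CPM. The means were 116 ± 4.72 CPM in CnB1KO and 48.1 ± 15.2 CPM in WT, a 2.42-fold higher level in CnB1KO. In FPKM they were 25.0 ± 0.968 in CnB1KO and 12.99 ± 2.53 in WT, a ratio of 1.92.

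Library 8 of WT_SD6 stood apart in Crb1 and library 10 of WT_SD6 in Wdfy1, each in 1 gene and not in the other. Library 8 had 7.16 CPM of Crb1, 44.6% of the mean of the other 8 WT libraries, which had 13.1 to 19.9 CPM. Library 10 had 88.2 CPM of Wdfy1, 2.05 times the mean of the other 8. Measured from the mean of the other WT libraries to the CnB1KO mean, library 8 was 66.0% of the way in Crb1 and library 10 was 61.8% of the way in Wdfy1. By FPKM library 8 was 64.3% of the way in Crb1 and library 10 was 57.3% of the way in Wdfy1. Library 8 had 40.2 CPM of Wdfy1, beside 40.7 to 47.5 CPM in the WT libraries other than these, and library 10 had 18.2 CPM of Crb1, inside the WT range. By FPKM library 8 had 13.3 of Wdfy1, the highest WT value after library 10, where CnB1KO libraries had 23.8 to 26.6. Libraries 8 and 10 both had 2 counts of Gm28438, and both lay above every CnB1KO library in Aim2 and in Snapc1. Without library 8, Crb1 averaged 16.1 ± 2.40 CPM in WT, and without library 10, Wdfy1 averaged 43.0 ± 2.27 CPM (SD, n = 8), 2.70-fold below the CnB1KO mean.

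**Figure D2:**
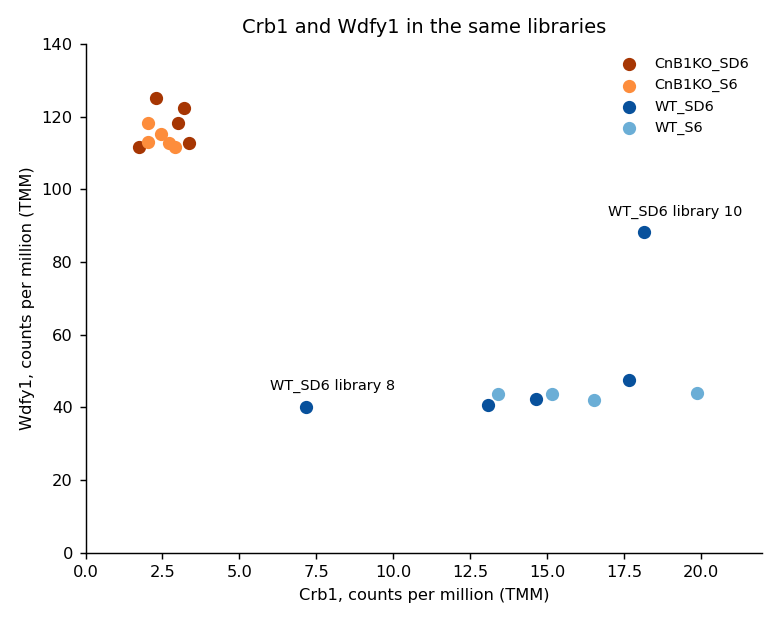
Wdfy1 (y) against Crb1 (x) in TMM-scaled CPM, 1 point per library, coloured by group. The CnB1KO libraries sit together at low Crb1 and high Wdfy1; WT_SD6 library 8 (7.16 CPM of Crb1) and library 10 (88.2 CPM of Wdfy1) lie between the genotypes in 1 gene each.

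Aim2 was low in all libraries and lower in CnB1KO. It had 1.47, 3.15, 3.47, 2.49 and 3.38 CPM in CnB1KO_SD6 and 3.61, 2.40, 2.184, 3.596 and 4.37 CPM in CnB1KO_S6, against 5.17, 4.38, 5.49, 4.55 and 6.178 CPM in WT_SD6 and 7.57, 8.80, 7.87 and 7.87 CPM in WT_S6. The genotypes did not overlap, but the highest CnB1KO library (4.367 CPM) and the lowest WT library (4.380 CPM) lay next to each other. The means were 3.01 ± 0.857 CPM in CnB1KO and 6.43 ± 1.63 CPM in WT, a 2.13-fold higher level in WT, on 8 to 28 counts per CnB1KO library and 25 to 57 per WT library. FPKM gave 0.839 ± 0.270 in CnB1KO and 2.13 ± 0.683 in WT, and the ranges of 0.408 to 1.24 FPKM in CnB1KO and 1.30 to 3.10 FPKM in WT did not overlap.

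Snapc1 differed little. It had 94.6, 83.8, 90.5, 87.9 and 85.8 CPM in CnB1KO_SD6 and 98.7, 91.8, 94.98, 96.0 and 95.6 CPM in CnB1KO_S6, against 99.7, 105, 102, 106 and 108 CPM in WT_SD6 and 116, 109, 109 and 117 CPM in WT_S6. Every CnB1KO library was below every WT library, by 1.02 CPM at the closest. The means were 92.0 ± 4.88 CPM in CnB1KO and 108 ± 5.66 CPM in WT, a 1.17-fold higher level in WT. In FPKM the ranges of 14.1 to 17.8 in CnB1KO and 17.5 to 20.1 in WT overlapped, with means of 16.4 ± 1.21 in CnB1KO and 19.1 ± 0.865 in WT.

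Nnt was measured by FPKM alone. The annotation holds 2 genes of that symbol on the same strand, and all 3339 exon bases of the second lie in the exons of the first, 47.4% of its 7037. Each library had 2 FPKM values for the symbol, which were summed; the lower was 0 in 4 of 10 CnB1KO and 7 of 9 WT libraries. The sums were 8.92, 9.96, 10.4, 9.81 and 7.96 FPKM in CnB1KO_SD6 and 8.20, 9.03, 7.62, 7.95 and 9.59 FPKM in CnB1KO_S6, against 9.08, 8.56, 6.96, 7.06 and 9.16 FPKM in WT_SD6 and 8.09, 7.88, 9.003 and 7.04 FPKM in WT_S6. The ranges of 7.62 to 10.4 FPKM in CnB1KO and 6.96 to 9.16 FPKM in WT overlapped in part. The means were 8.94 ± 0.977 FPKM in CnB1KO and 8.09 ± 0.913 FPKM in WT, a ratio of 1.11. Since the 2 genes differ in length, the sum depends on how reads were split between them. The higher value alone was 4.39 to 10.4 FPKM in CnB1KO and 4.61 to 9.16 FPKM in WT, which also overlap. FPKM of the whole gene does not show whether single exons are missing, and reads per exon were not analysed here.

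**Figure D3:**
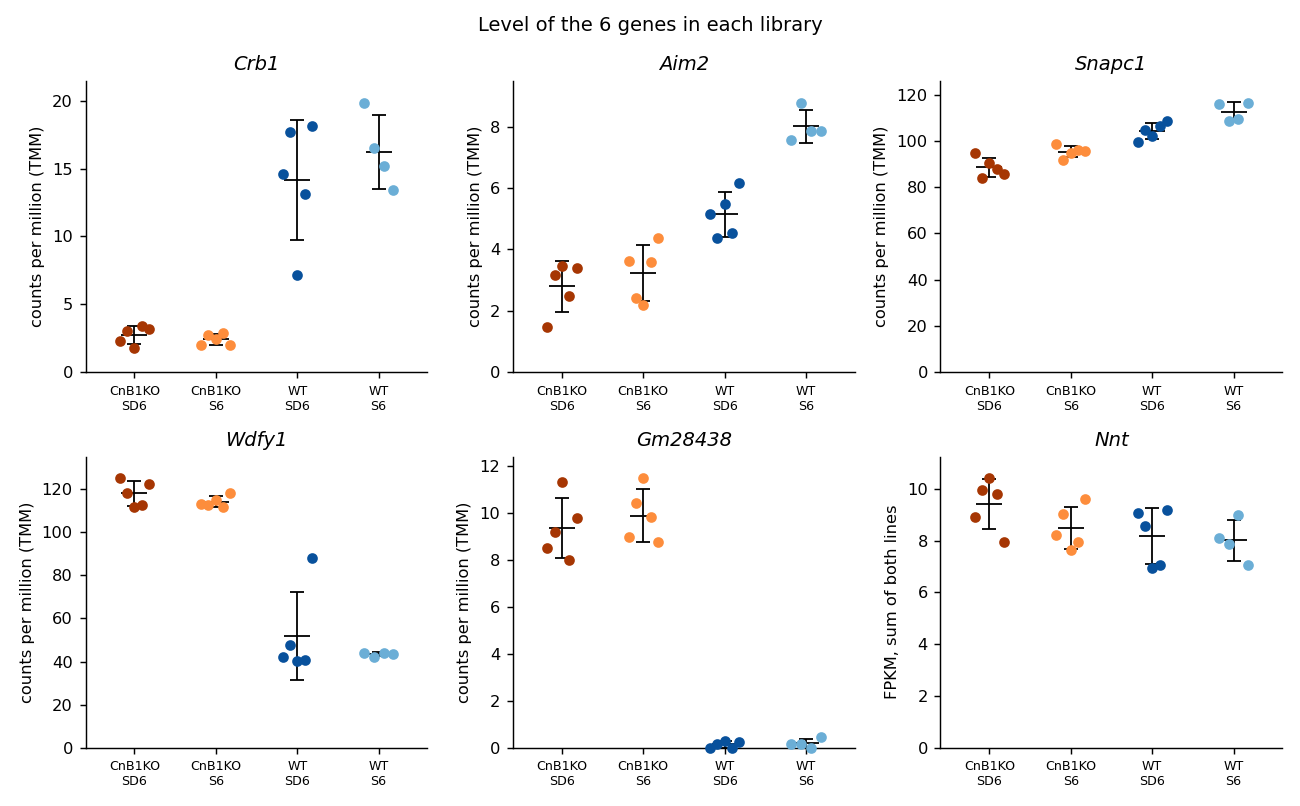
Level of each gene by group, in TMM-scaled CPM (Nnt in FPKM), with 1 point per library and bars for mean ± SD. Crb1, Aim2 and Snapc1 are lower and Wdfy1 and Gm28438 higher in all 10 CnB1KO libraries than in all 9 WT libraries, and Nnt overlaps.

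All 5 counted members thus had CPM without overlap between the 10 CnB1KO and the 9 WT libraries, which held for 22 of all 14443 genes (0.152%), 11 of them higher (0.0762%) and 11 lower (0.0762%) in CnB1KO. This difference chose the members and supports nothing about them. By FPKM 3 of the 6, Crb1, Wdfy1 and Aim2, did not overlap. By the size of the fitted log2 difference Gm28438 ranked 1st (5.68), Crb1 2nd (-2.56), Wdfy1 8th (1.29), Aim2 17th (-1.08) and Snapc1 1602nd (-0.24) of all genes. The median absolute log2 difference was 0.08 over all genes, and 23 genes differed more than 2-fold. Per length, in FPKM over WT libraries, the order of levels among the members other than Gm28438 was Snapc1, Wdfy1, Nnt, Crb1 and Aim2; Crb1 (2.21 ± 0.537) and Aim2 (2.13 ± 0.683) did not differ beyond their spread. In CnB1KO libraries Wdfy1 came first, then Snapc1, Nnt, Aim2 and Crb1.

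Sleep deprivation was not used to choose the members and was tested. Of the 5 counted members 1, Snapc1, passed when deprivation was averaged over genotypes, where 4.69% of all genes passed. None passed in CnB1KO alone (0.692% of all genes) or in WT alone (1.14%), where the unadjusted p was under 0.05 for 1400 and 1673 genes. Snapc1 fell after deprivation by 0.11 on the log2 scale (SE 0.03, adjusted p = 0.0338, edgeR), with 88.5 ± 4.22 CPM in CnB1KO_SD6 against 95.4 ± 2.47 CPM in CnB1KO_S6, and 104 ± 3.49 CPM in WT_SD6 against 113 ± 4.17 CPM in WT_S6 (SD, n = 5, 5, 5 and 4). Leaving out 1 library at a time moved its adjusted p between 0.018 and 0.0775, and 10 of the 19 left-out libraries, 1 and 4 of WT_S6, 6 and 8 of WT_SD6, 11, 14 and 15 of CnB1KO_S6 and 17, 19 and 20 of CnB1KO_SD6, each took it above 0.05. By FPKM the Snapc1 change was 0.01 (SE 0.05, adjusted p = 0.983, limma), and 0 of the 6 members passed for averaged deprivation, where 1.35% of the symbols tested by FPKM passed.

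Aim2 showed the largest deprivation difference among the members in WT, at 4.38 to 6.178 CPM in WT_SD6 against 7.57 to 8.80 CPM in WT_S6, without overlap. In CnB1KO the groups overlapped, at 1.47 to 3.47 CPM in CnB1KO_SD6 and 2.184 to 4.37 CPM in CnB1KO_S6. Its log2 change was -0.63 in WT (SE 0.19, adjusted p = 0.128, unadjusted 0.00341), -0.24 in CnB1KO (SE 0.22, adjusted p = 0.883) and -0.43 averaged (SE 0.14, adjusted p = 0.0961), by edgeR. None of these passed, and FPKM gave -0.72 in WT (SE 0.27, adjusted p = 0.421, limma). SD6 and S6 libraries of WT did not overlap for 2 of the 5 counted members, Aim2 and Snapc1, against 5.21% of all genes, with Snapc1 at most 108.5 CPM in WT_SD6 and at least 108.6 CPM in WT_S6. In CnB1KO this held for 0 of 5, against 2.66%. By FPKM it held in WT for Aim2 alone of the 6 members, since Snapc1 had 17.5 to 19.7 FPKM in WT_SD6 and 18.5 to 20.1 FPKM in WT_S6, which overlap.

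The other members gave no call for deprivation. Averaged over genotypes the log2 change was -0.02 for Crb1 (SE 0.18, adjusted p = 0.984), 0.16 for Wdfy1 (SE 0.11, adjusted p = 0.541) and -0.20 for Gm28438 (SE 0.37, adjusted p = 0.90) by edgeR, and 0.09 for Nnt by FPKM (SE 0.07, adjusted p = 0.733, limma). Without library 8 the Crb1 change was 0.06, and without library 10 the Wdfy1 change was 0.01, so 1 library carried most of the Wdfy1 value. No member passed the test of a different response to deprivation between genotypes: the largest interaction among them was 0.39 for Aim2 (SE 0.29, adjusted p = 1, edgeR), and 0 of 14443 genes passed (287 at an unadjusted p under 0.05).

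**Figure D4:**
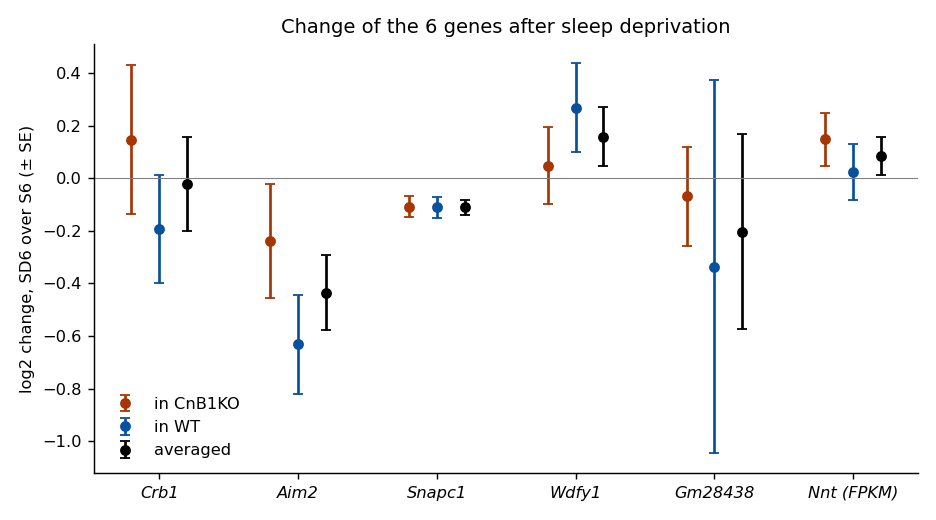
Log2 change after deprivation (SD6 over S6, ± SE) of each member in CnB1KO, in WT and averaged, from edgeR on counts and, for Nnt, limma on FPKM. The Snapc1 values lie together at -0.11 with the smallest errors, Aim2 in WT is at -0.63, and the wide bar of Gm28438 in WT rests on 0 to 3 counts per library.

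The genes around the members were compared between genotypes to describe whether a member's difference extended along its chromosome. Within 5 Mb of the members 282 other genes were tested and 10 passed (3.55%), against 3.09% of all 14443 genes. Leaving out 1 library at a time moved the count of called neighbours, and of genes called in all, by over 1.5 times for most libraries. It gave 0 to 4 neighbours without library 2, 3 or 4 of WT_S6, 7 or 9 of WT_SD6, 12, 13 or 15 of CnB1KO_S6, or 17, 18 or 19 of CnB1KO_SD6. It gave 16 to 24 without library 8 or 10 of WT_SD6, 14 of CnB1KO_S6 or 16 of CnB1KO_SD6. The count near the members thus rests on which libraries are kept, as does the count over all genes. Without library 16, 24 neighbours and 1088 genes in all were called, and without library 4, 0 neighbours and 76 genes. On chromosome 1 as a whole 35 of 844 genes passed (4.15%). Among these 35 are the 4 members there, which were chosen on this difference. The windows leave members out, so the 2 shares are not alike. The largest absolute log2 differences among neighbours of Crb1, Wdfy1, Aim2 and Gm28438 were 0.49, 0.32, 0.54 and 0.41, below those of the members themselves. Around Snapc1 it was 0.40, larger than that of Snapc1 itself. The members were chosen on their own difference, so smaller values in neighbours were nearly fixed in advance. They do not show how far a difference extends.

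The called neighbours lay 1.05 to 4.64 Mb away. Uchl5, a proteasome-bound deubiquitinase, and Lmod1, a leiomodin of smooth muscle, rose near Crb1 (log2 0.28 and 0.44). Near Wdfy1, the kinase gene Stk16 (0.14) and Sgpp2, a sphingosine-1-phosphate phosphatase (0.24), rose, and Nyap2, a neuronal phosphoprotein gene (-0.32), fell. Near Aim2, Rgs5 (0.22), a pericyte regulator of G protein signalling, and Kcnj10 (0.22), the glial potassium channel Kir4.1, rose and Adss (-0.16), of AMP synthesis, fell. Near Snapc1, Gpr135 (-0.24) and Nemf (-0.11), of ribosome quality control, fell. Their adjusted p-values ran between 0.026 and 0.048, and each lost its call in 5 to 15 of 26 alternative fits. Of the neighbours 0 of 18 of Nnt and 0 of 17 of Gm28438 passed. Around Ppp3r1 2 of 24 genes passed, Ugp2 (0.14) and Cnrip1 (-0.15).

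**Figure D5:**
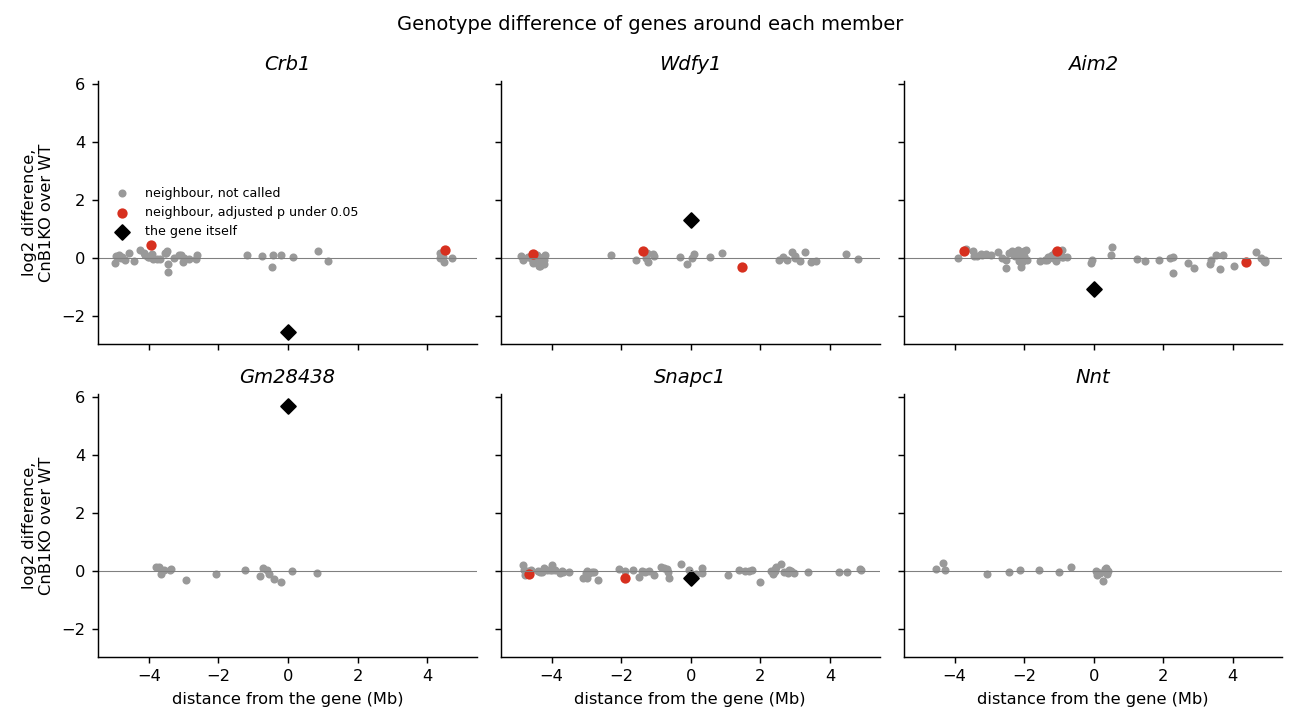
Log2 difference of CnB1KO over WT for each gene within 5 Mb of a member, by distance of gene midpoints in Mb; black diamonds are the members (Nnt has no counts), red points are neighbours that passed. The neighbours lie near 0, and the red points, 10 of 282, are spread over the windows.

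Genes of the members' pathways mostly did not differ between genotypes. Of the AIM2-like receptor genes on chromosome 1, which lie beside Aim2, Mndal and Ifi203 were measured and did not pass (log2 0.08 and 0.36, adjusted p = 0.871 and 0.294, edgeR), and 13 of 16 listed genes are not in the count table. None of 4 other inflammasome genes passed; the adaptor gene Pycard had 5.09 ± 1.07 CPM in CnB1KO and 3.73 ± 0.872 CPM in WT (adjusted p = 0.0904). None of 14 Crumbs complex genes passed, with Crb2 at 10.9 to 19.1 CPM in CnB1KO and 4.58 to 18.8 CPM in WT. The largest difference among them was that of Mpp4 (log2 -0.78, adjusted p = 0.1, edgeR). Mpp4 had 4.09 ± 1.71 CPM in CnB1KO and 7.36 ± 3.72 CPM in WT. The medians of these 3 lists were 0.22, 0.16 and -0.04 on the log2 scale, against 0.01 over all genes.

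In each of the pathways of Wdfy1, Snapc1 and Nnt 1 gene passed, of 9, 12 and 16 genes, where 3.09% of all genes passed. Traf3, a signalling adaptor of TLR3 and TLR4, rose (log2 0.19, SE 0.05, adjusted p = 0.0313, edgeR) but lost its call in 10 of 26 alternative fits, while Wdfy2 and Wdfy3, the relatives of Wdfy1, did not pass (-0.04 and -0.05). Tbp, the TATA-binding protein that works with the complex of Snapc1, fell (-0.32, SE 0.07, adjusted p = 0.0211) and lost its call in 1 of 26; the partner subunits Snapc2, Snapc3, Snapc4 and Snapc5 did not pass, at 0.12, -0.17, -0.12 and 0.02. Glrx5, a mitochondrial glutaredoxin of iron-sulfur cluster assembly, rose (0.22, SE 0.06, adjusted p = 0.0446) but lost its call in 15 of 26, with an adjusted p of up to 0.122. Idh2 and Me3, other sources of mitochondrial NADPH, did not pass (-0.01 and 0.01). Tlr3 and Irf3 are named after their deprivation values were seen. After deprivation, averaged over genotypes, Tlr3 fell (-0.40, adjusted p = 0.0197), at 25.6 ± 3.96 CPM in SD6 and 34.2 ± 6.1 CPM in S6 libraries. Irf3, a transcription factor downstream of TLR3, rose (0.21, adjusted p = 0.048), at 39.1 ± 3.33 CPM in SD6 and 33.8 ± 2.90 CPM in S6. Tlr3 kept its call in all 26 alternative fits, and Irf3 lost it in 17.

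Of 6 other measured genes known to differ between mouse strains or substrains, 1 passed, where 3.09% of all genes passed. Entpd4, Entpd4b, Nlrp12, Ifi202b and Erdr1, also listed, are not in the count table. Gabra2, the GABA-A receptor subunit whose expression is lowered by an intronic deletion in C57BL/6J mice, averaged 117 ± 20.4 CPM in CnB1KO and 80.9 ± 7.82 CPM in WT libraries (log2 0.54, SE 0.09, adjusted p = 0.00659, edgeR). The ranges of 77.4 to 143 CPM in CnB1KO and 69.5 to 92.8 CPM in WT overlapped. Ide, Cyfip2, Disc1, Glo1 and C4b did not pass.

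The genes most like each member over the 19 libraries were those with the smallest root mean square difference of centred log2 CPM. For Crb1 the nearest was Aim2 at 0.84, then Fndc9 and Stc2 on chromosome 11, against an SD of 1.24 of Crb1 itself. The distance grows with a member's own spread, which was an SD of 0.69 for Wdfy1, 0.63 for Aim2, 0.14 for Snapc1 and 2.24 for Gm28438. For Wdfy1 they were Cd59a at 0.38, Colq and Gm37168, for Aim2 Hfm1 at 0.41, 4930447M23Rik and 9330118I20Rik, and for Snapc1 Med19 at 0.063, Ccnc and Meaf6. For Gm28438 the nearest was Wdfy1 at 1.603, then Or51e2 and Gm49980. Of the 13 nearest genes that are not members 12 passed between genotypes (3.09% of all genes) and 2 did not overlap (0.152% of all genes); since they were picked for their likeness to members chosen on that difference, these counts support nothing. Stc2, a secreted stanniocalcin, had 3.44 to 5.39 CPM in CnB1KO and 5.55 to 10.7 CPM in WT, and Med19, a Mediator subunit, had 33.7 to 37.8 CPM in CnB1KO and 38.0 to 43.3 CPM in WT.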

How the data were processed

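RNA of 19 locus coeruleus samples was sequenced without strand information, per the labels' protocols, so reads of overlapping genes cannot be told apart. Per the submitters' processing notes, the build was GRCm38 and the tools included HTSeq 2.0.4, StringTie 2.2.1, Picard 2.18.29 and Trim Galore 0.6.10. The sources used here name neither the aligner nor the treatment of reads with several placements. The authors deposited whole read counts per symbol and, in 1 table per group, FPKM; 14101 of 14443 counted symbols matched 1 GENCODE M21 gene. Libraries are named by the running number in the column names.

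After TMM scaling, counts were tested in edgeR 4.0.16 (quasi-likelihood, 2-sided, R 4.3.3) in 1 fit of 4 groups with 15 residual degrees of freedom. A gene passed ("was called") at an adjusted p under 0.05 (Benjamini-Hochberg, all genes), and "rose" or "fell" is used of those. FPKM was tested with limma 3.58.1 on log2(FPKM + 0.1), which understates changes of low genes, for 25720 symbols with a mean of at least 0.1. On simulated counts the genotype test recovered 91% of 1.5-fold changes and the WT deprivation test 68%. Whether the tests recover as much in the deposited counts was not tested. There, leaving out 1 library at a time gave 76 to 1088 genes called between genotypes (447 with all). DESeq2 1.42.0 and voom were alternatives.

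The members and gene lists were chosen with earlier results of these data known. Named genes were the members, Ppp3r1, called neighbours (up to 4 per window), called list genes (up to 4 per list) and the 3 nearest genes per member. One gene of the lists is not reported here. Labels give biological replicates but no batch.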

Additional observations from a re-analysis of the deposited data

Results flagged for a closer look

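Within groups of 4 or 5 libraries, 44 sets of member values were examined for a library far from the rest, of which chance alone flags about 1 in 20, and 4 were flagged. Library 10 of WT_SD6 was high in Wdfy1, at a log2 CPM of 6.47 against 5.34 to 5.58 in the other 4, and at 19.5 FPKM against 11.4 to 13.3. Library 2 of WT_S6 was low in Wdfy1, at a log2 CPM of 5.41 against 5.46 to 5.47, a small gap among libraries that lay close together. Library 1 of WT_S6 was high in Gm28438 at 1434 FPKM against 1207 to 1233. Crb1 in library 8 of WT_SD6, described above, was not flagged by this measure.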

How the results depend on the processing

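No paired analysis was possible because the columns of 3 of the 4 groups carry a running library number and not the replicate number of the titles. The filter on low counts removed no gene. Leaving out 1 library at a time gave 0 to 1 members past the test for averaged deprivation, 76 to 1088 genes past it between genotypes (447 with all), 0 to 24 called neighbours (10 with all), Gm28438 genotype log2 differences of 5.48 to 6.08, and FPKM log2 changes of Gm28438 after deprivation of -0.0027 to 0.11; the averaged deprivation change ranged from -0.078 to 0.061 for Crb1 and from -0.41 to 0.20 for the counts of Gm28438. DESeq2 called 682 genes between genotypes. Without WT_SD6 libraries 8 and 10 together, an alternative chosen after seeing the data, 761 genes, 16 neighbours and 0 members for averaged deprivation were called, with 6.29 for Gm28438 and 0.025 for the deprivation change of Crb1. Windows of 2 and 10 Mb held 4 and 19 called neighbours (4.26% and 3.38%). The cause of these moves was not tested, apart from window size. Of 38 named non-members called between genotypes 13 passed under every alternative, Ppp3r1, Gabra2, Stc2 and Med19 among them, and 0 changed direction. None of the called neighbours of the members was among the 13. Stc2, Med19 and others of the 13 were picked for likeness to members chosen on the genotype difference, so their kept calls support nothing. The neighbours were not picked that way, so the sets cannot be compared. The genotype directions of the 5 counted members held under every alternative run, but that difference chose them, so this supports nothing about them. Counts of 0 to 3 limit the precision of Gm28438 in WT.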
